A study of Mus musculus with 20 samples.

Results

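The interleukin-1 (IL-1) system and the inflammasome were followed in monocytes and microglia of the mouse brain 3 days after photothrombosis. In this model of stroke a photosensitive dye in the blood is lit through the skull, and the vessels of the cortex beneath clot. The set has 9 genes chosen by name: the cytokines Il1a, Il1b and Il18, the receptor antagonist Il1rn, the receptors Il1r2 and Il1rap, and the inflammasome genes Nlrp3, Casp1 and Pycard. All 9 were listed in both deposited tables, which hold 16536 and 16140 genes with 13152 names in common. The first table has 8 libraries of Cxcr4-GFP mice, 4 of GFP-positive monocytes and 4 of GFP-negative microglia, and each animal or pool gave both populations. Replicate 1 came from 2 mice, replicate 2 from a pool of 5 mice and the other 2 from single mice. The second table has 12 libraries from single mice of the Cxcr4CreER line, which carries a tamoxifen-inducible Cre recombinase: 3 each of KO monocytes, KO microglia, control monocytes and control microglia. KO animals are conditional Cxcr4 knockouts and the control animals are wild type for that deletion, and both carry the same line name. Monocytes were labelled TdT-positive and microglia TdT-negative in both genotypes, so population and reporter signal cannot be told apart, and whether the TdT-negative microglia of KO animals lost Cxcr4 is not shown. Titles of the GFP libraries carry the tag BrKo, which is also on the KO libraries and is not explained in the labels.

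IL-1 signalling is a first step of sterile inflammation. Il1a and Il1b encode separate ligands of the same receptor. The first is active as a precursor released from damaged cells. The second is inactive until it is cut, chiefly by caspase-1 inside an inflammasome. A sensor such as Nlrp3 recruits the adaptor ASC, encoded by Pycard, which in turn gathers caspase-1, and caspase-1 also matures IL-18. The ligands signal through a receptor chain encoded by Il1r1 together with the accessory chain encoded by Il1rap, whereas Il1rn encodes an antagonist that occupies the receptor without signalling and Il1r2 a decoy receptor that binds ligand without signalling. After stroke, microglia and infiltrating myeloid cells are both known sources of IL-1. Messenger RNA levels do not show how much cytokine was cut or released.

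The 3 genes on which most of the results turn, Il1a, Il1b and Il1rn, lie on mouse chromosome 2. Their promoters are shown because the Il1a message went the opposite way between the populations from those of Il1b and Il1rn. RefSeq sequences of GRCm38.p6 matched all 9 symbols or gene IDs, and the 250 bases before the transcript start are printed 5′ to 3′ on the strand of the gene, with matches to 5 short motifs in capitals. The Il1a window is chr2:129309973-129310222 (minus strand), the Il1b window chr2:129371140-129371389 (minus strand), and the Il1rn window chr2:24345121-24345370 (plus strand), the most downstream of 3 listed Il1rn starts.
Il1a: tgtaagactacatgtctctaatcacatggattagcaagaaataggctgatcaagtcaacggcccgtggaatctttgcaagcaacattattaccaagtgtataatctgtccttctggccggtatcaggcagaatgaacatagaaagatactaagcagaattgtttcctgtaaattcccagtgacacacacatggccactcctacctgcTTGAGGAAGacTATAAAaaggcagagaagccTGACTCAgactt
Il1b: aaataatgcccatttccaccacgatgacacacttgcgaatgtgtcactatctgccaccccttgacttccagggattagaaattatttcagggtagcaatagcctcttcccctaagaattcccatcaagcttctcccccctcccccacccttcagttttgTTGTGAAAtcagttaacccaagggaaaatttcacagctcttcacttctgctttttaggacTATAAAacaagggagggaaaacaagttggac
Il1rn: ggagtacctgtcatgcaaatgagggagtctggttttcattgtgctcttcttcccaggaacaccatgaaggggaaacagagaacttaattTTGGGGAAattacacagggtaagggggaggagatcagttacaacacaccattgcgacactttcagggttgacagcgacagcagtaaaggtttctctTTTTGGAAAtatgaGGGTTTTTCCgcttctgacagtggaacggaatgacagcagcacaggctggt

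The motifs were searched on both strands as an NF-kB form (GGG, any 3 bases, TTCC), an AP-1 form (TGANTCA), a PU.1 form (GAGGAAG), a C/EBP form (TTNNGNAA) and the TATA box (TATAAA). Of 32851 promoter windows of the same length, 4.65% held the NF-kB form, 6.75% the AP-1 form, 10.6% the PU.1 form, 36.8% the C/EBP form and 12.4% the TATA box. The Il1a window held a TATA box at bases 32 to 27 before the start, a PU.1 form at bases 41 to 35 that overlapped a C/EBP form at bases 43 to 36, and an AP-1 form at bases 12 to 6. In the Il1b window a TATA box lay at bases 31 to 26 and a C/EBP form at bases 91 to 84. The Il1rn window shown had no TATA box, but an NF-kB form at bases 51 to 42 and C/EBP forms at bases 161 to 154, 65 to 58 and 64 to 57, the last 2 of which overlap. Of the other listed Il1rn starts, 24336860 had an AP-1 form and 24345291 a C/EBP form, and neither had the NF-kB form. These matches describe letters and not sites of binding, and values summed per gene cannot tell the Il1rn starts apart.

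Library totals ranged from 0.617 to 14.9 M reads (GFP table) and 9.73 to 56.8 M reads (Cre table). In the GFP table the ribosomal RNA gene Rn45s took 22.1% (GFP microglia 4) to 48.3% (GFP microglia 2) of these reads. GFP microglia 3 and 4 and GFP monocytes 3 stood apart, with 5598, 3489 and 3029 genes above 0, whereas the remaining GFP libraries had 10422 to 14498. Levels are normalized counts, and 1 read is worth 0.104 to 2.58 of these in the GFP table and 0.375 to 2.19 in the Cre table. Markers went with the population labels: the summed counts of 10 monocyte genes were 4491 to 14518 in GFP monocytes and 2.50 to 390 in GFP microglia, 112623 to 183750 in KO monocytes and 2064 to 5137 in KO microglia, and 104485 to 146767 in control monocytes and 2929 to 7910 in control microglia. Cxcr4, the targeted gene, was at 784, 1010 and 536 in KO monocytes and at 1183, 1332 and 1166 in control monocytes, groups that did not overlap, although limma did not call the difference (log2 fold -0.70, 95% interval -3.11 to 1.71, adjusted p 0.962). Cxcr4 was at 0.912, 0 and 0 in KO microglia and at 0, 7.88 and 0 in control microglia. A loss of Cxcr4 from microglia therefore cannot be read from these values. In bulk samples, fewer cells of a type and less RNA per cell cannot be told apart.

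Il1a, the ligand that acts as an alarm, was lower in monocytes than in microglia in all 3 sets of mice. GFP monocytes had 86.5, 73.8, 0 and 128 normalized counts of Il1a, against 2361, 1168, 717 and 1511 in GFP microglia. KO monocytes had 23178, 11338 and 19371, against 86282, 67584 and 46342 in KO microglia, and control monocytes had 19120, 13246 and 7012, against 43665, 52837 and 64758 in control microglia. In all 3 comparisons the highest monocyte library lay below the lowest microglia library. Limma, a linear model with a moderated test run here on log2(value + 1), gave a log2 fold of -5.44 in GFP mice (SE 1.18, adjusted p 0.0178, n = 4 each), -1.91 in KO mice (SE 0.37, adjusted p 0.00962, n = 3 each) and -2.13 in control mice (SE 0.37, adjusted p 0.00539, n = 3 each). Genes with an adjusted p under 0.05 over all tested genes are spoken of as changed, called, higher or lower by the test. Il1a was also lower in the monocytes of every one of the 4 GFP pairs and 4 Cre pairs from the same animal or pool. The GFP call was lost without filtering low genes (adjusted p 0.0908), with upper quartile scaling (adjusted p 0.235), without GFP microglia 3 (adjusted p 0.0731) and without GFP microglia 4 (adjusted p 0.174), while the limma fold stayed between -6.14 and -3.80 in the runs that left out 1 library.

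Il1b, the ligand that is cut chiefly by caspase-1, ran the other way. GFP monocytes had 1756, 1843, 1261 and 1272 normalized counts, against 868, 445, 67.4 and 350 in GFP microglia. KO monocytes had 88671, 51673 and 85660, against 13304, 14003 and 8682 in KO microglia. Control monocytes had 88757, 77089 and 65315, against 9803, 12338 and 15618 in control microglia. No monocyte library reached down to a microglia library in any of the 3 comparisons. Il1b was 2.64 log2 units higher in KO monocytes (SE 0.26, limma adjusted p 0.000145) and 2.63 higher in control monocytes (SE 0.26, limma adjusted p 0.000139). In GFP mice the fold was 2.28 (SE 0.64) with a limma adjusted p of 0.0927, so it was not called there, although it was called when the 3 gene-poor libraries were left out (log2 fold 1.37, adjusted p 0.00794), with a pseudocount of 10 (adjusted p 0.0155) and with CPM scaling (adjusted p 0.0285).

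Il1rn, whose product blocks the receptor, was likewise a monocyte gene. GFP monocytes had 555, 486, 1089 and 451 normalized counts, against 18.1, 12.9, 11.2 and 320 in GFP microglia. KO monocytes had 19916, 6525 and 11110, against 487, 335 and 333 in KO microglia. Control monocytes had 12256, 12581 and 10273, against 81.6, 134 and 281 in control microglia. Again the populations did not overlap in any of the 3 comparisons, and GFP microglia 4 stood far above the other 3 GFP microglia libraries. The log2 fold was 4.90 in KO mice (SE 0.49, limma adjusted p 0.000147) and 6.32 in control mice (SE 0.49, limma adjusted p 2.53e-05). In GFP mice it was 4.24 (SE 1.14, limma adjusted p 0.0768), not called; without GFP microglia 4 it was 5.35 (adjusted p 0.00804), and when the 3 gene-poor libraries were left out 4.93 (adjusted p 1.5e-06).

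**Figure D1:**
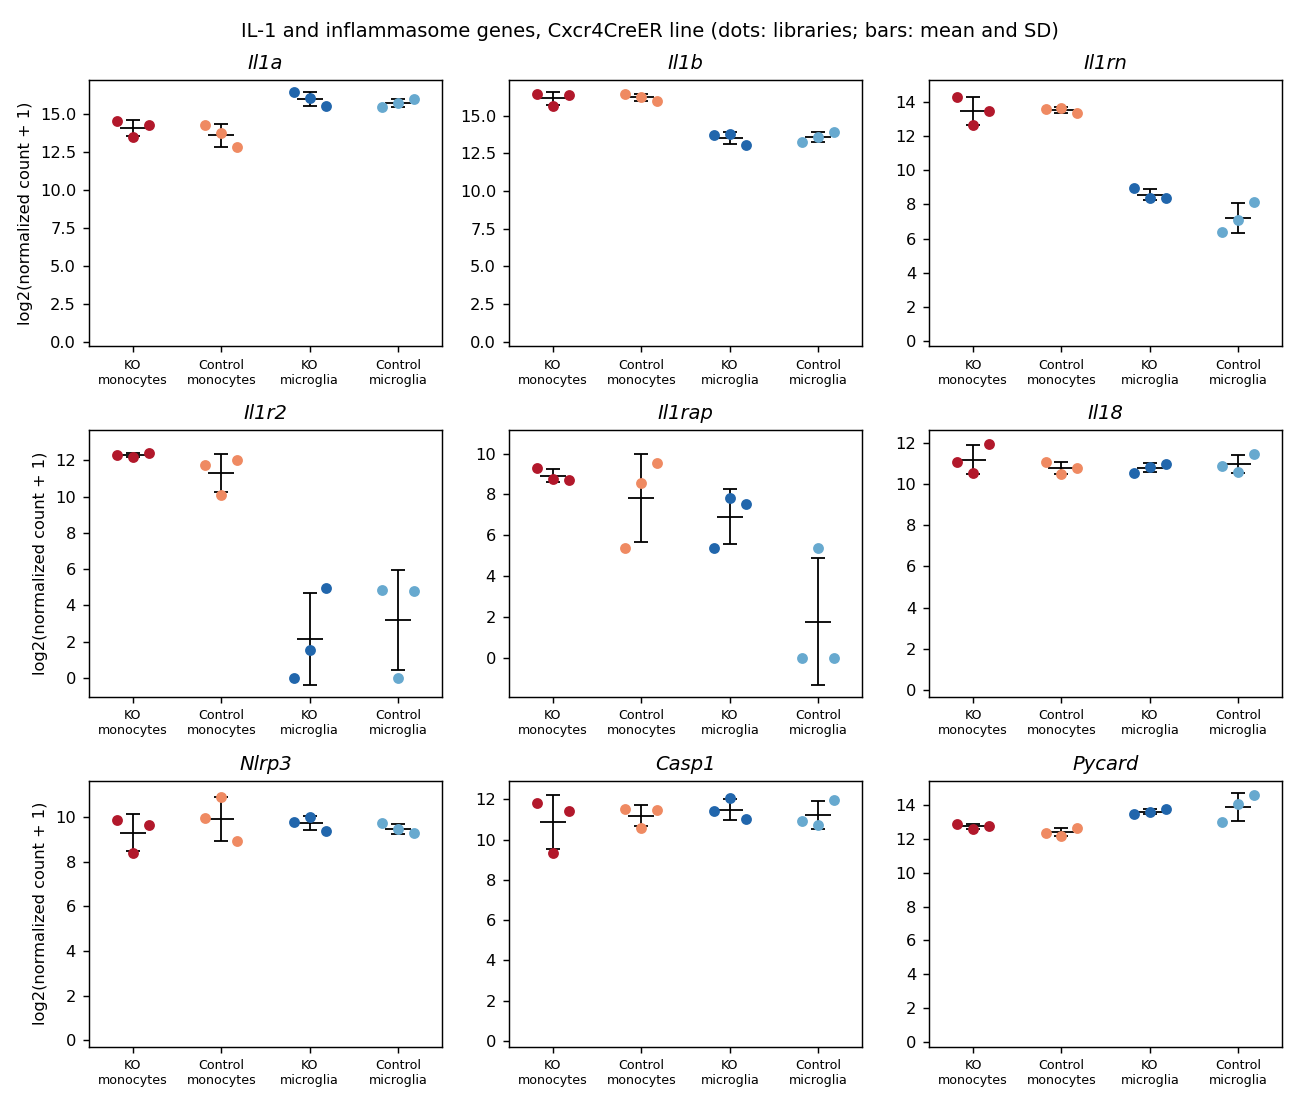
Normalized counts of the 9 genes on the log2(value + 1) scale in the Cxcr4CreER line, with 1 dot a library (3 per group) and bars for the mean and SD. Il1b, Il1rn and Il1r2 sit higher in KO monocytes and control monocytes than in the microglia of the same genotype, Il1a and Pycard sit lower, and Il18, Nlrp3 and Casp1 overlap.

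Il1r2, the decoy receptor, showed the widest gap of the set in the Cre table. KO monocytes had 5125, 4671 and 5476 normalized counts, against 0, 1.87 and 30.2 in KO microglia, and control monocytes had 3486, 1091 and 4204, against 27.4, 0 and 26.5 in control microglia. All 6 monocyte libraries were at 1091 or more and all 6 microglia libraries at 30.2 or less. The log2 fold was 10.15 in KO mice (SE 1.44, limma adjusted p 0.00145) and 8.10 in control mice (SE 1.44, limma adjusted p 0.00587). In the GFP table Il1r2 was below the filter for testing. GFP monocytes had 23.8, 19.6, 0 and 162, against 2.58, 0.861, 0 and 0 in GFP microglia. The groups overlapped through GFP monocytes 3, at 0.

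Neutrophils also carry Il1r2, so genes of that cell type are given beside it. The summed counts of 16 neutrophil genes were 42505 to 81924 in KO monocytes and 1374 to 4079 in KO microglia, and 21469 to 43734 in control monocytes and 908 to 1924 in control microglia. None of the 16 was at 0 throughout KO monocytes and 2 were in control monocytes (Elane and Mpo), whereas 8 were in KO microglia and 12 in control microglia. Among the defining genes, Ly6g was at 128 ± 127 in KO monocytes and at 0 in KO microglia, and at 6.30 ± 5.51 in control monocytes and at 0 in control microglia (SD, n = 3 each). In the GFP table, monocytes 4 had both the highest Il1r2 value, 162, and the highest neutrophil sum, 2167, against sums of 569 to 796 in the other GFP monocytes and 892 to 1461 in GFP microglia, most of it in microglia from Csf3r at 1239 ± 261. The part of neutrophils in the Il1r2 difference was not tested.

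**Figure D2:**
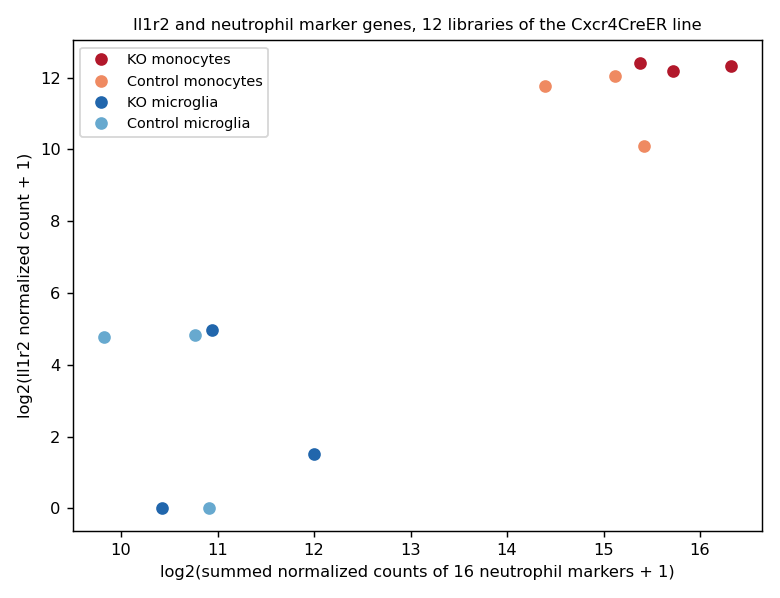
Il1r2 against the summed neutrophil genes on log2 scales in the 12 libraries of the Cxcr4CreER line, with 1 dot a library. The 3 KO monocyte and 3 control monocyte libraries sit high on both axes, and within control monocytes the library with the highest neutrophil sum, 43734, had the lowest Il1r2 count, 1091.

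Il1rap, the accessory chain of the signalling receptor, was low in both tables and separated the populations less evenly. KO monocytes had 621, 433 and 413 normalized counts, against 41.0, 226 and 185 in KO microglia. Control monocytes had 41.1, 371 and 734, against 0, 40.4 and 0 in control microglia. The groups of both genotypes stayed apart, in control mice by less than 1 count. The test called Il1rap in control mice (log2 fold 6.03, SE 1.54, limma adjusted p 0.0379) and not in KO mice (log2 fold 1.99, 95% interval -1.37 to 5.35, adjusted p 0.548). The control call was lost with a pseudocount of 10 (adjusted p 0.0566), with edgeR (adjusted p 0.219), without control microglia 1 or 3, control monocytes 2 or 3, KO microglia 2 or 3, or any of the 3 KO monocyte libraries (adjusted p 0.0523 to 0.122). In GFP mice Il1rap was at 49.5, 35.5, 0 and 41.2 in monocytes, against 18.1, 28.4, 7.49 and 0 in microglia, and the groups overlapped.

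**Figure D3:**
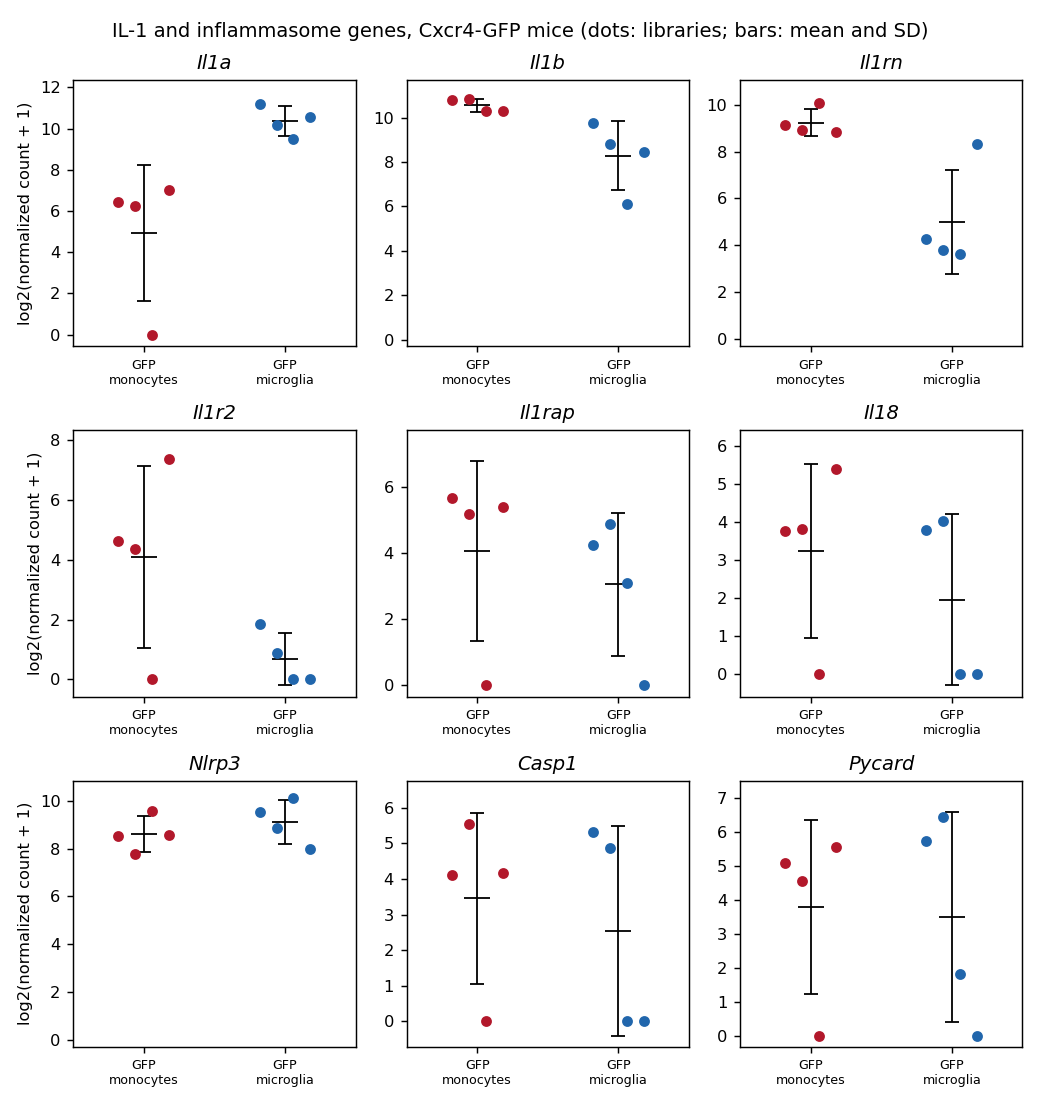
The same 9 genes in Cxcr4-GFP mice, on the log2(value + 1) scale, with 1 dot a library (4 per group) and bars for the mean and SD. Il1a sits lower in GFP monocytes, Il1b and Il1rn sit higher, and the other 6 overlap, with GFP monocytes 3 at 0 for 6 of the 9 genes.

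Pycard, the adaptor that joins sensor and caspase, was lower in control monocytes by the test, and lay the same way in KO monocytes without a call. KO monocytes had 7638, 6150 and 6914 normalized counts, against 11309, 12507 and 13984 in KO microglia, and control monocytes had 5273, 4560 and 6315, against 8142, 17121 and 25261 in control microglia. Every monocyte library lay below every microglia library of its genotype, and the control microglia spread over a wider range than the KO microglia. The difference was called in control mice (log2 fold -1.51, SE 0.34, limma adjusted p 0.0196) and missed the threshold in KO mice (log2 fold -0.87, SE 0.34, limma adjusted p 0.172), and the interaction was not called (0.64, limma adjusted p 0.999). The control call was lost without control monocytes 1 or 2 or control microglia 2 or 3 (adjusted p 0.0558 to 0.0664), and the KO difference was called without control microglia 1 (adjusted p 0.0349), since all 4 groups share 1 estimate of the spread. In GFP mice Pycard was at 32.6, 22.5, 0 and 46.0 in monocytes, against 51.7, 85.6, 2.50 and 0 in microglia, with no call.

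The sensor Nlrp3, the protease gene Casp1 and the cytokine Il18 overlapped between the populations throughout. Nlrp3 was at 697 ± 324 in KO monocytes and 868 ± 184 in KO microglia, at 1136 ± 726 in control monocytes and 721 ± 113 in control microglia (SD, n = 3 each), and at 435 ± 237 in GFP monocytes and 643 ± 375 in GFP microglia (SD, n = 4 each). Casp1 averaged 2351 ± 1547 in KO monocytes and 3030 ± 1130 in KO microglia, and 2432 ± 787 in control monocytes and 2583 ± 1308 in control microglia. Il18 averaged 2502 ± 1237 in KO monocytes and 1760 ± 265 in KO microglia, and 1768 ± 352 in control monocytes and 2069 ± 658 in control microglia. None of the 3 was called in any comparison. In control mice the 95% intervals of the log2 fold reached from -1.05 to 0.65 for Il18, from -0.76 to 1.66 for Nlrp3 and from -1.36 to 1.29 for Casp1. In the GFP table Casp1 and Il18 stayed at 45.6 normalized counts or fewer, with GFP monocytes 3 and GFP microglia 3 and 4 at 0.

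Counted over the set, limma called 6 of 9 genes between control monocytes and control microglia, 4 higher and 2 lower, against 6.52% of all 12432 tested genes (3.46% higher and 3.06% lower). Between KO monocytes and KO microglia it called 4 of 9, 3 higher and 1 lower, against 6.83% of all tested genes (3.85% higher and 2.98% lower). Between GFP monocytes and GFP microglia it called 1 of the 8 genes that passed the filter, against 0.908% of 7706 genes (0.493% in the same, lower direction). Groups without overlap were seen for 6 of 9 genes in control mice (22.1% of all tested genes), for 6 of 9 in KO mice (27.5%) and for 3 of 8 in GFP mice (9.41%). The median log2 fold of the set was 0.40 in KO mice, 0.45 in control mice and 0.96 in GFP mice, against -0.25, -0.24 and 0.51 over all genes.

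**Figure D4:**
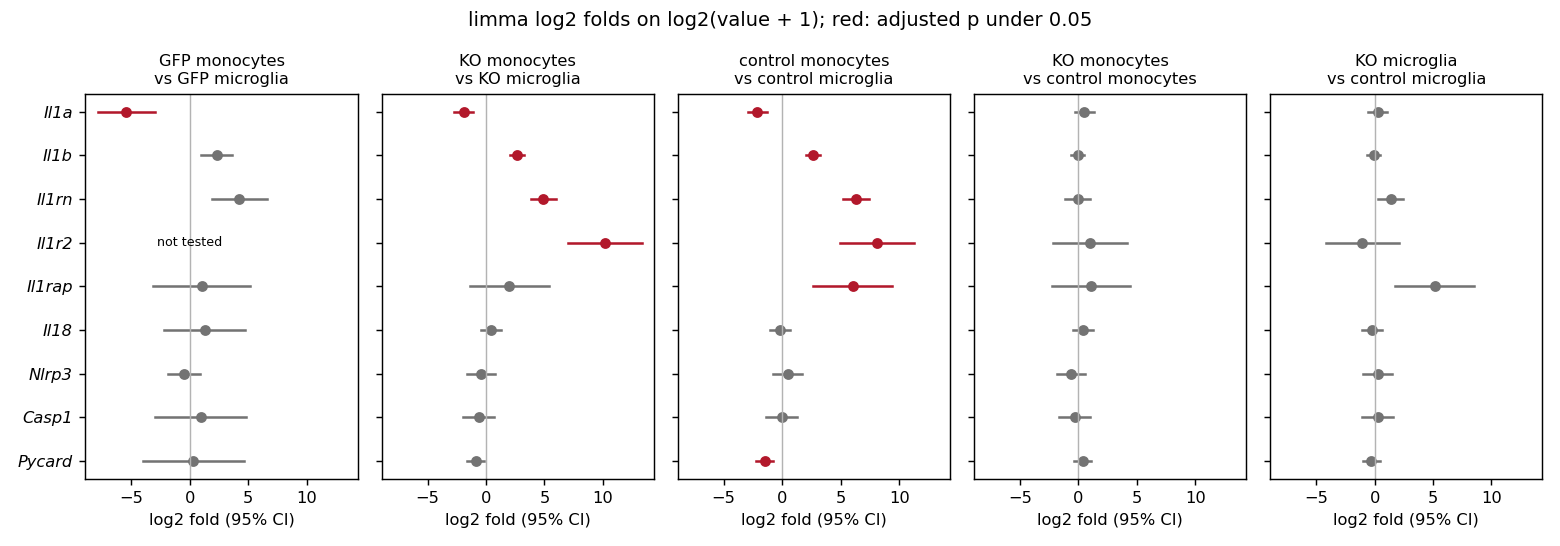
Limma log2 folds of the 9 genes with 95% intervals in 5 comparisons, on a shared axis, with called genes in red. Monocytes differ from microglia with Il1a to the left and Il1b, Il1rn and Il1r2 to the right in both genotypes of the Cre table, and no gene is red in KO monocytes against control monocytes or KO microglia against control microglia.

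The balance of ligand and antagonist was read as a ratio of (value + 1) within each library, which is not divided by transcript length, so only its differences between groups can be read. The log2 ratio of Il1a to Il1b was -4.33, -4.62, -10.30 and -3.30 in GFP monocytes, against 1.44, 1.39, 3.39 and 2.11 in GFP microglia. It averaged -2.09 ± 0.13 in KO monocytes and 2.46 ± 0.22 in KO microglia, and -2.66 ± 0.51 in control monocytes and 2.10 ± 0.05 in control microglia (SD, n = 3 each). The sign of this ratio parted the 2 populations in all 20 libraries. Il1a and Il1b each had groups without overlap, in opposite directions, in GFP, KO and control mice. The ratio groups therefore had to part, with the smallest permutation p possible. The tests of this ratio add no support beyond the values of the 2 genes. The difference was -7.72 in GFP mice (two-sided exact permutation p 0.0286, which is as small as 4 libraries against 4 can give, and 0.125 adjusted over the 10 ratio comparisons). This test ignored that the libraries are paired; the ratio was lower in the monocytes of 4 of 4 pairs, and swaps within pairs gave an exact permutation p of 0.125, as small as 4 pairs can give. Without GFP monocytes 3, whose Il1a was at 0, the difference was -6.17. It was -4.55 in KO mice and -4.76 in control mice, each with an exact permutation p of 0.1, as small as 3 against 3 can give.

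The log2 ratio of Il1rn to Il1b set the monocytes of the Cre table apart from microglia in every library. It was -2.15, -2.99 and -2.95 in KO monocytes, against -4.77, -5.38 and -4.70 in KO microglia, and -2.86, -2.62 and -2.67 in control monocytes, against -6.89, -6.52 and -5.79 in control microglia. The groups stayed apart, by 2.25 in KO mice and 3.69 in control mice (exact permutation p 0.1 each, adjusted 0.125). In GFP mice the ratio was -1.66, -1.92, -0.21 and -1.49 in monocytes, against -5.51, -5.00, -2.48 and -0.13 in microglia. Here the groups overlapped through GFP microglia 4 (difference 1.96, exact permutation p 0.229).

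**Figure D5:**
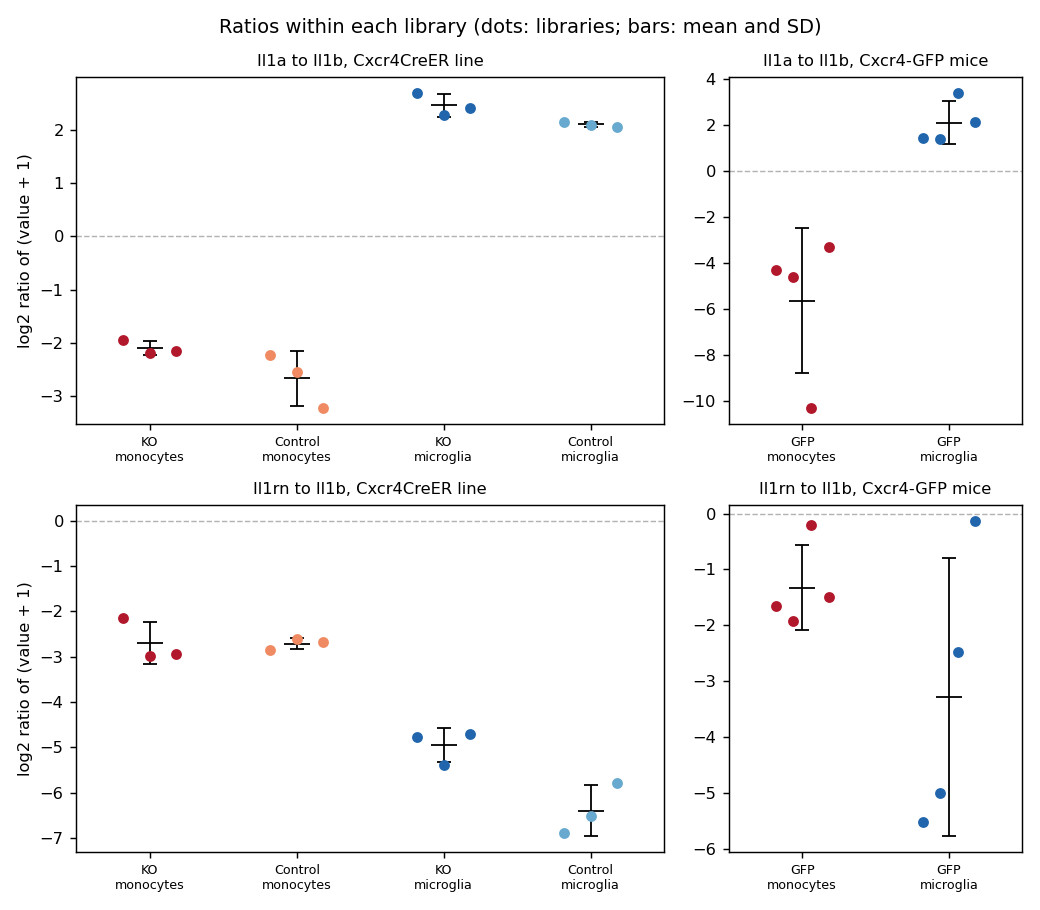
The log2 ratios of Il1a to Il1b (top) and of Il1rn to Il1b (bottom) in each library, in the Cxcr4CreER line (left) and in Cxcr4-GFP mice (right), with bars for the mean and SD and a dashed line at 0. All monocyte libraries lie below 0 and all microglia libraries above 0 in the top row; in the bottom row GFP microglia 4, at -0.13, lies among the GFP monocytes.

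KO and control animals were then compared within each population. In KO monocytes against control monocytes limma called 0 of the 9 genes, against 0.0402% of all tested genes; 0 of the 9 had an unadjusted p under 0.05, DESeq2 and edgeR also called 0, and 756 of the 12432 genes had an unadjusted p under 0.05. Il1b averaged 75335 ± 20547 in KO monocytes and 77054 ± 11721 in control monocytes (log2 fold -0.06, 95% interval -0.64 to 0.51, adjusted p 1). Il1rn averaged 12517 ± 6805 in KO monocytes and 11703 ± 1249 in control monocytes (log2 fold -0.04, 95% interval -1.12 to 1.03). KO monocytes 2 was the lowest of the 3 KO monocyte libraries for 8 of the 9 genes, all but Il1rap, and its sum of 14 immediate early and stress genes was also the lowest, 45350 against 84585 and 91148 in the other KO monocytes and 73620 to 100527 in control monocytes.

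Il1r2 was the one gene of the set whose KO monocytes all lay above the control monocytes, where 8.82% of all genes had groups without overlap. The values, given above, averaged 5091 ± 404 in KO monocytes and 2927 ± 1630 in control monocytes, with a log2 fold of 1.01 (95% interval -2.14 to 4.16, limma adjusted p 0.957). The neutrophil sums overlapped between these groups by 1 library. Of the 16 neutrophil genes 12 had a higher mean in KO monocytes and 4 a lower one (Cxcr2, Camp, Csf3r and Stfa2l1). The median log2 fold was 0.69 over the 14 tested, against 0.05 over all genes. Of these 14, 13 were not called. The other, Elane, was among the 5 genes that limma called in this comparison (adjusted p 0.0207). Elane was at 119 to 2161 in KO monocytes and at 0 in every control monocyte library. The part of neutrophils in the Il1r2 values was not tested. Il1a averaged 17963 ± 6044 in KO monocytes and 13126 ± 6055 in control monocytes, with overlapping libraries. The log2 ratio of Il1a to Il1b was -1.94, -2.19 and -2.14 in KO monocytes, against -2.21, -2.54 and -3.22 in control monocytes, groups that stayed narrowly apart (difference 0.57, exact permutation p 0.1, adjusted 0.125).

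In KO microglia against control microglia limma again called 0 of 9 genes, against 0.0322% of all tested genes, and DESeq2 and edgeR also called 0. At an unadjusted p under 0.05 stood 2 genes of the set, as did 439 of the 12432 genes. Il1rn was at 487, 335 and 333 in KO microglia, against 81.6, 134 and 281 in control microglia, and Il1rap at 41.0, 226 and 185, against 0, 40.4 and 0. Both genes kept their groups apart, where 9.46% of all genes did, although for Il1rap KO microglia 1 and control microglia 2 differed by less than 1 count. The log2 fold was 1.38 for Il1rn (SE 0.49, unadjusted p 0.0166, limma adjusted p 1) and 5.13 for Il1rap (SE 1.54, unadjusted p 0.00606, limma adjusted p 0.974). Across the alternatives the adjusted p lay between 0.555 and 1 for Il1rn and between 0.174 and 1 for Il1rap, so neither passed under any of them. The fold of Il1rap was 2.96 with a pseudocount of 10 and 3.47 with edgeR, and 4.24 to 6.92 when 1 library was left out, at its highest without control microglia 2.

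Beside these values, the monocyte sums were 2064 to 5137 in KO microglia and 2929 to 7910 in control microglia, and the neutrophil sums 1374 to 4079 in KO microglia and 908 to 1924 in control microglia. Of the 10 monocyte genes 4 had a higher mean in KO microglia (Ccr2, Itga4, F10 and Hp) and 6 a lower one, with a median log2 fold of -0.01 and none called by limma. Ccr2, a defining monocyte receptor, was at 90.9 ± 25.4 in KO microglia and 14.1 ± 8.26 in control microglia, whereas Ly6c2, another, was at 0 in KO microglia and at 132 ± 226 in control microglia (SD, n = 3 each). Of the 16 neutrophil genes 7 had a higher mean in KO microglia, 1 a lower one and 8 an equal one. Their median log2 fold was 0 over the 14 tested, and limma called none. The part of monocyte or neutrophil RNA in the Il1rn and Il1rap values was not tested. Il1b was at 11996 ± 2891 in KO microglia and 12586 ± 2915 in control microglia (log2 fold -0.07, 95% interval -0.65 to 0.50). The log2 ratio of Il1rn to Il1b was -4.95 ± 0.38 in KO microglia and -6.40 ± 0.56 in control microglia, a difference of 1.45 with no overlap (exact permutation p 0.1, adjusted 0.125). The interaction term, which compares the KO difference of monocytes with that of microglia, was -1.42 for Il1rn (95% interval -2.94 to 0.10, unadjusted p 0.0647) and -4.04 for Il1rap (95% interval -8.79 to 0.71, unadjusted p 0.0884). It was called for 0 of 9 genes by limma, DESeq2 and edgeR, with 0 of 9 at an unadjusted p under 0.05, against 0% of all genes called and 590 at an unadjusted p under 0.05.

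Other genes of the pathway were drawn from a list of 44 names, of which 25 could be tested in the GFP table and 36 in the Cre table. In GFP monocytes against GFP microglia 0 of 25 were called by limma, edgeR or DESeq2, and 1 had an unadjusted limma p under 0.05 (580 of all 7706 genes). In control monocytes against control microglia 4 were higher and 2 lower, and in KO monocytes against KO microglia 1 was higher and 2 were lower, so that 30 and 33 were not called in control and KO mice. The share called was 16.7% in control mice, against 6.52% of all tested genes, and 8.33% in KO mice, near the 6.83% of all tested genes. These calls leaned on the method: edgeR called 0 of 36 in control mice and 2 in KO mice (Mefv and Nek7), and DESeq2 called 7 in control mice (Il1rl2, Irak4, Naip6, Nlrc4, P2rx7, Panx1 and Txnip) and 5 in KO mice (Irak4, Mefv, Naip6, Nek7 and Nlrc4). Of the genes described next, Irak3 was called by neither of these tools in either genotype, and Mefv in control mice was not called by them either. In KO monocytes against control monocytes limma and edgeR called 0 of 36, with 4 at an unadjusted limma p under 0.05 (756 of all 12432 genes), and DESeq2 called 2 (Il1rl2 and Naip1). In KO microglia against control microglia limma and edgeR called 0 of 36, with 2 at an unadjusted p under 0.05 (439 of all genes), and DESeq2 called 1 (Panx1). The interaction was called for 0 of 36 by limma and edgeR, with 2 at an unadjusted p under 0.05 (590 of all genes), and for 2 by DESeq2 (Il1rl2 and Nek7).

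Among the ligands and receptors outside the set limma and edgeR called none. The receptor Il1rl2, which DESeq2 called, was at 0 in every control monocyte library, at 0 to 217 in KO monocytes and at 0 to 573 in control microglia. Il1r1, the signalling receptor of both ligands, averaged 0.348 ± 0.335 in KO monocytes and 35.0 ± 60.5 in KO microglia. It averaged 38.7 ± 67.01 in control monocytes and 20.02 ± 34.7 in control microglia. Each mean above 1 rested on a single library, at 105 in KO microglia, 116 in control monocytes and 60.1 in control microglia. In receptor signalling, Irak3, a brake on IL-1 receptor signalling, averaged 695 ± 189 in control monocytes and 24.0 ± 41.5 in control microglia (log2 fold 7.35, SE 1.90, limma adjusted p 0.0403). It averaged 164 ± 158 in KO monocytes and 61.0 ± 92.2 in KO microglia (log2 fold 2.79, limma adjusted p 0.479), and the interaction was not called (-4.56, limma adjusted p 0.999). The proximal kinase Irak4 averaged 3548 ± 1821 in control monocytes and 1019 ± 395 in control microglia (log2 fold 1.76, limma adjusted p 0.0403). In KO mice Irak4 ran the same way, at 2272 ± 670 in KO monocytes and 922 ± 293 in KO microglia (log2 fold 1.32, limma adjusted p 0.118), and DESeq2 called it there too.

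Of the other sensors, Mefv, which encodes pyrin, was higher in the monocytes of both genotypes. It averaged 1433 ± 1389 in KO monocytes and 0.624 ± 1.08 in KO microglia (log2 fold 9.54, SE 1.91, limma adjusted p 0.0111), and 2419 ± 1448 in control monocytes and 112 ± 194 in control microglia (log2 fold 8.24, SE 1.91, limma adjusted p 0.0235). Nlrc4, a sensor of bacterial ligands, was called by limma in control mice, at 124 ± 114 in control monocytes and 0.941 ± 0.988 in control microglia (log2 fold 5.75, adjusted p 0.0447). It ran the same way at 237 ± 215 in KO monocytes and 8.12 ± 3.30 in KO microglia (log2 fold 3.50, limma adjusted p 0.232), a difference that DESeq2 called, and the interaction was not called (-2.26, limma adjusted p 0.999). Naip6 was lower in the monocytes of both genotypes, at 7.48 ± 10.2 in KO monocytes and 151 ± 77.9 in KO microglia (log2 fold -4.97, limma adjusted p 0.0458), and at 2.79 ± 3.79 in control monocytes and 285 ± 136 in control microglia (log2 fold -6.65, limma adjusted p 0.0113). Naip6 belongs to a family of near-identical copies, so its reads may be shared with other Naip genes, and in GFP mice it ran the other way without a call (log2 fold 3.82, adjusted p 0.631).

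Among the activators, Nek7, a kinase that Nlrp3 needs, was lower in KO monocytes at 629 ± 214, against 2693 ± 215 in KO microglia (log2 fold -2.16, SE 0.48, limma adjusted p 0.0191). Control monocytes had 1787 ± 1391 and control microglia 1331 ± 100 (log2 fold 0.16, limma adjusted p 0.899), and the interaction was not called by limma (log2 -2.32, adjusted p 0.851). Txnip, an Nlrp3 partner, was lower in control monocytes at 451 ± 160, against 1800 ± 369 in control microglia (log2 fold -2.04, limma adjusted p 0.0431), and in KO mice it was at 1198 ± 996 in KO monocytes and 2045 ± 443 in KO microglia (log2 fold -1.07, limma adjusted p 0.304). Gsdmd, which encodes the pore protein of pyroptosis, averaged 768 ± 173 in KO monocytes and 693 ± 249 in KO microglia, and 530.5 ± 306 in control monocytes and 295 ± 61.4 in control microglia, and was not called.

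The genes most alike to the 3 central members were ranked by Pearson correlation of log2(value + 1) over the 12 Cre libraries among 8010 genes with a mean of 100 or more. These libraries fall into 2 populations, so each value mostly follows the contrast between them. The closest to Il1a were Mri1 (0.963), Rhoh (0.960), Lockd (0.957), Ivns1abp (0.954) and the chemokine gene Ccl3 (0.953). Of these, Ivns1abp stood at 0.913, Ccl3 at 0.486 and Rhoh at 0.465 over the 8 GFP libraries. The closest to Il1b were Gpnmb (0.986), Slpi (0.984), Iqgap2 (0.983), Napsa (0.983) and Rhou (0.982), and the closest to Il1rn were Ifi203 (0.986), Acp5 (0.982), Gpnmb (0.976), Iqgap2 (0.976) and Cd74 (0.975). Il1b and Il1rn themselves correlated at 0.973 over the 12 Cre libraries and 0.688 over the 8 GFP libraries, and Il1a and Il1b at -0.817 and -0.495.

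Markers of other myeloid cells and of handling are given beside these values. Summed counts of 10 microglia genes were 793 to 3485 in GFP monocytes and 15271 to 27356 in GFP microglia, 22539 to 38767 in KO monocytes and 244558 to 304035 in KO microglia, and 23942 to 33106 in control monocytes and 189617 to 305899 in control microglia. None of the 10 was at 0 throughout a monocyte group. Summed counts of 8 genes of border-associated macrophages were 1392 to 2015 in GFP monocytes and 10.4 to 256 in GFP microglia, 8376 to 12389 in KO monocytes and 1246 to 2031 in KO microglia, and 7300 to 18912 in control monocytes and 1584 to 3760 in control microglia. Of these, Pf4 and F13a1 were called higher by limma in the monocytes of both Cre genotypes, and the defining gene Lyve1 was at 0 throughout KO monocytes and control monocytes. Summed counts of 6 dendritic cell genes were 0 to 99.0 in GFP monocytes and 0 to 15.1 in GFP microglia, 1547 to 4260 in KO monocytes and 104 to 431 in KO microglia, and 2508 to 4505 in control monocytes and 23.9 to 457 in control microglia, with Cd209a called in both genotypes. The part of these cells in the values of the set was not tested. The 14 immediate early and stress genes, which rise when cells are dissociated, summed to 7855 to 19642 in GFP monocytes and 13129 to 53638 in GFP microglia, 45350 to 91148 in KO monocytes and 88308 to 111595 in KO microglia, and 73620 to 100527 in control monocytes and 88332 to 108836 in control microglia. The ranges of this last sum overlapped between the populations in GFP, KO and control mice. By gene, limma called Jun, Egr1 and Egr3 lower in GFP, KO and control monocytes, and Atf3 lower in KO monocytes. Dusp1 was called higher in control monocytes. In GFP, KO and control mice 11, 10 and 10 of the 14 were not called. Over all tested genes limma called 0.908%, 6.83% and 6.52% in these comparisons. Il1a and Il1b are themselves inducible, and the part of the response to dissociation in their levels was not tested.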

How the data were processed

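RNA of 20 libraries in 6 groups was deposited in 2 tables, with GFP libraries made from total RNA (Nugen Ovation SoLo) and Cre libraries from polyA RNA (SMART-Seq2), per the labels' protocols. Per the submitters' processing notes, the GFP table involved CASAVA 1.82 with DESeq2, and the Cre table kallisto and DESeq2 after bcl2fastq 2.20; build and annotation were not given in the sources used here. The deposited values are a signal made by the authors, normalized counts in which each library's reads were scaled by a size factor of its own. All values (100%) lay within 0.01 of whole multiples of 1 read, and whole reads were recovered from them. Because each table was scaled on its own, levels are set side by side only within a table.

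Genes reaching 10 in at least 4 GFP or 3 Cre libraries were tested as log2(value + 1) with limma 3.58.1 (R 4.3.3; trend, two-sided), and p-values were adjusted by Benjamini-Hochberg over all 7706 or 12432 genes. The GFP fit had 2 groups and the Cre fit had 4 sharing 1 estimate of the spread; fold changes on this scale depend on the pseudocount for low genes, and zeros can widen them. edgeR 4.0.16 and DESeq2 1.42.0 on the recovered reads, a pseudocount of 10, no filter, upper quartile and CPM scaling, leaving out libraries and a block for the animal were alternatives; swaps within pairs for the GFP ratios were added after seeing the data. On simulated data with known answers the GFP test recovered 57% of genes changed by a log2 fold of 2 and 93% changed by 4. The control test recovered 44% and 99%. Whether the simulated spread matched that of the real libraries, the gene-poor GFP libraries among them, was not tested. These shares therefore describe the simulated data only and do not give the power of the tests on the real libraries. Ratios were compared by exact permutation tests with Python 3.11.15 and scipy 1.17.1.

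Titles name the animal, so libraries of the same animal or pool are paired: all 4 GFP pairs and 4 pairs among the 8 Cre animals. Deviations from the group means correlated at 0.238, 0.198, 0.127 and -0.113 in the GFP pairs and at -0.0555 to 0.00955 in the Cre pairs. No 2 libraries of a group agreed within sampling noise (chi-square per degree of freedom 5.95 or more). The genes of the set, the pathway and marker lists and the rule for the 5 most alike genes were chosen with earlier results of these data known. Named pathway genes were those limma called in any comparison, and those called by edgeR or DESeq2 alone are listed without values except Il1rl2; Il1r1, Gsdmd, Ccr2, Ly6g and Csf3r were added after their values were seen.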

Additional observations from a re-analysis of the deposited data

Results flagged for a closer look

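In groups of 4 libraries, 3 values lay far from the other 3 by Dixon's test at the 95% level. Chance gives about 1 in 20 such groups, and 22 were tested. In GFP monocytes, Il1rn was at 1089 in replicate 3, against 451 to 555 in the others (gap 0.837 of the range); this library had 3029 detected genes. In GFP monocytes, Il1r2 was at 162 in replicate 4, against 0 to 23.8 in the others (gap 0.853), and this library also had the highest neutrophil sum, 2167. In GFP microglia, Il1rn was at 320 in replicate 4, against 11.2 to 18.1 in the others (gap 0.978); this library had 3489 detected genes.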

How the results depend on the processing

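Of the 8 GFP libraries 3 have few detected genes, Casp1, Il18, Il1r2 and Il1rap rest on few reads there, and intervals and folds cover 3 or 4 libraries a group. In GFP monocytes against GFP microglia the 1 called gene became 3 with a pseudocount of 10, 3 with CPM scaling, 3 without the 3 libraries of few detected genes, 0 with no filter and 0 with upper quartile scaling, and it lay between 0 and 2 when 1 library was left out. Over all genes, the 70 calls became 198 with a pseudocount of 10, 106 with CPM scaling, 1058 without the 3 libraries, 38 with no filter and 14 with upper quartile scaling. Without GFP microglia 4 the called gene of the set was Il1rn and not Il1a. Of the called folds, 113 of 128 kept their call when 1 library was left out. Under the other alternatives 74 of 78 did, among them the GFP run without the 3 gene-poor libraries. The replicate block by animal or pool gave Il1a a fold of -5.44 (adjusted p 0.0254) in GFP mice, and the block changed no call; it was a random term in the Cre table (estimated correlation -0.0663). Of the 36 other pathway genes limma called 6 in control mice and 3 in KO mice, edgeR 0 and 2, and DESeq2 7 and 5. The number of members called stayed at 0 in both KO comparisons and in the interaction under every alternative.

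Directions that reversed all belonged to folds that were not called, and the cause was not tested. In GFP mice, Casp1 was at -0.48 without the 3 libraries, Pycard was at -0.43 with edgeR, -0.48 with DESeq2 and -1.02 without the 3 libraries, and leaving out 1 library gave -0.86 to 1.57 for Pycard and -0.011 to 2.36 for Il1rap. Leaving out 1 library gave, in control mice, -0.40 to 0.042 for Il18, -0.034 to 0.95 for Nlrp3 and -0.28 to 0.35 for Casp1, and in KO mice -0.72 to 0.039 for Nlrp3 and -1.12 to 0.13 for Casp1. For KO monocytes against control monocytes, Il1b was at 0.041 with upper quartile scaling and 0.021 with edgeR, and Il1rn at 0.059 with upper quartile scaling, 0.15 with edgeR and 0.10 with DESeq2; leaving out 1 library gave -0.20 to 0.19 for Il1b, -0.45 to 0.35 for Il1rn, -0.12 to 1.95 for Il1rap, -0.81 to 0.44 for Casp1 and -0.25 to 0.16 for the log2 ratio of Il1rn to Il1b. For KO microglia against control microglia it gave -0.24 to 0.14 for Il1b, -2.64 to 0.039 for Il1r2, -0.40 to 0.044 for Il18, -0.0036 to 0.66 for Casp1 and -0.73 to 0.088 for Pycard.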
